A study of Mus musculus with 8 samples.

Results

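Phase II conjugation enzymes were followed across Reg3a-deficient and floxed mouse colonic organoids as 64 of the 45777 genes in the deposited count table. They were every protein-coding gene whose symbol names a UDP-glucuronosyltransferase of family 1A or 2 (UGT, symbols Ugt1a and Ugt2), a glutathione S-transferase (GST, symbols Gsta, Gstm, Gstp, Gstt, Gstk, Gsto and Gstz, and the membrane-bound Mgst), or a sulfotransferase (SULT, symbol Sult). By superfamily they comprised 18 UGT, 25 GST and 21 SULT genes. The KO group was 4 libraries (numbered 5 to 8) of colonic organoids from Reg3aΔIEC mice, in which loxP sites around exons 2 to 4 of Reg3a were combined with Villin-Cre, a recombinase driven in the intestinal epithelium. The fl/fl group was 4 libraries (13 to 16) from Reg3afl/fl mice, which carry the same floxed allele and for which the labels name no Cre. C57BL/6J is the mouse strain the labels give. All organoids, which are epithelial crypt cells grown in Matrigel, came from male mice of 9 weeks and were collected untreated 3 days after passage, at no more than 15 passages. One sentence of the labels gives 1 mouse per genotype in 4 wells and another gives 3 mice per genotype in triplicate, so the p-values measure the spread between libraries, which may be technical, and genotype cannot be told apart from the mouse or organoid line.

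Library totals were 42370611 to 48533942 counts in KO and 37182098 to 49256171 counts in fl/fl. Reg3a itself had 0 counts in all 8 libraries, so its counts do not check the genotype labels. Epithelial markers summed to between 10490 and 11106 CPM (counts scaled to the TMM-adjusted library total) in KO and between 10086 and 10841 CPM in fl/fl, while of 6 fibroblast markers none had enough counts to be tested and Col1a2, Dcn and Lum were at 0. Markers of differentiated colonocytes mostly stood higher in KO, with 9 of 12 tested genes higher and 1 lower and summed levels of 6584 to 6805 CPM in KO against 4664 to 5148 CPM in fl/fl. The lower one was Aqp8 (log2 fold change -1.28, adjusted p = 0.0314 by edgeR's test), with 7.69 to 12.4 CPM in KO and 6.59 to 37.2 CPM in fl/fl. Car4 and Ceacam1 did not pass the threshold. Cycling markers stood lower, with 7 of 8 lower and summed levels of 979 to 1034 CPM in KO against 1161 to 1341 CPM in fl/fl. Of 8 goblet cell markers 5 were lower (113 to 143 CPM summed in KO, 158 to 213 CPM in fl/fl), and of 7 tested stem cell markers 4 were lower (1788 to 1923 CPM in KO and 1856 to 2215 CPM in fl/fl, with overlap). None was higher among the tested enteroendocrine (3 of 7 lower), tuft (1 of 1 lower) and immune (1 of 2 lower) markers, and of 7 small intestine markers 1 was tested, with no call, and Fabp1 was at 0. The 6 immune markers summed to between 28.8 and 44.4 CPM in KO and between 30.7 and 43.3 CPM in fl/fl, with Cd3e at 0. KO library 6 had the highest sum and held 9.90 CPM of Lyz2, which was at 0 in the other 7 libraries, and Itgam had a log2 fold change of 0.68 (adjusted p = 0.143 by edgeR's test). For comparison, 7.63% of all 14945 genes tested were higher in KO and 8.26% lower. The part of these markers in the results on the enzymes was not tested, and in bulk RNA fewer cells of a type cannot be told apart from less RNA per cell.

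Phase II enzymes attach a polar group to drugs, hormones, bilirubin and dietary or bacterial phenols so that the product can be carried out of the cell. UGTs, which sit in the endoplasmic reticulum, transfer glucuronic acid from UDP-glucuronate. GSTs couple glutathione to electrophiles, and SULTs transfer sulfonate from the donor PAPS (3'-phosphoadenosine 5'-phosphosulfate). The colonic epithelium carries all of these reactions out and is among the tissues where conjugates meet gut bacteria that can split them again.

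The genes of the Ugt1a locus are a special case, because each has its own first exon and all of them splice to one common set of later exons. In the GENCODE M21 transcripts (GRCm38) the first coding exons held 849 to 870 bases, and the 735 coding bases after them were the same 4 exons for all 8 Ugt1a members, at chr1:88215044-88218421 on the plus strand. The common part was 45.8% to 46.4% of each coding sequence, so a read that falls in it cannot be assigned to a gene by its sequence. The junctions below show the last 20 bases of each first coding exon in lower case and the first 20 shared bases in capitals, for the 4 members whose counts were highest, of which Ugt1a6a and Ugt1a6b are identical over these bases.
Ugt1a1: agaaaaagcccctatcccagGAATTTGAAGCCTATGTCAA
Ugt1a7c: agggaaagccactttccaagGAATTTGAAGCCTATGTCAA
Ugt1a6a: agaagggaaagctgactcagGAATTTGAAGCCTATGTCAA
Ugt1a6b: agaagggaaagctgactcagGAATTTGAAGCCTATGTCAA
Ugt1a2 and Ugt1a5 also shared the last 20 bases of the first coding exon. Over whole first coding exons Ugt1a6a and Ugt1a6b were 97.0% identical and Ugt1a9 and Ugt1a10 were 91.3% identical, whereas Ugt1a1 was 57.2% to 60.2% identical to the others.

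Near-identical copies also occur among the GSTs. The first 60 coding bases of the alpha class and of the pi class are given next from the same transcripts, with capitals where a gene differs from the first gene of its class. They show the start of each coding sequence only. The identities and shared windows given after them describe how far the copies can be told apart.
Gsta1: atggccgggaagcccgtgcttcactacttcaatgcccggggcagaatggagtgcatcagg
Gsta2: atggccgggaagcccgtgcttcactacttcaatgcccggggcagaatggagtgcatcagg
Gsta3: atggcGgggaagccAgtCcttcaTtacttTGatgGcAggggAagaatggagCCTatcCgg
Gsta4: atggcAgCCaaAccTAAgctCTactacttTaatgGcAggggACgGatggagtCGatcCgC
Gstp1: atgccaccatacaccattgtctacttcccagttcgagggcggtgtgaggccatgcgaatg
Gstp2: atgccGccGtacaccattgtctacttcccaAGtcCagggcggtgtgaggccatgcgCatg
Gstp3: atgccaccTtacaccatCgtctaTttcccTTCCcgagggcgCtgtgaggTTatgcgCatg
Gsta2 did not differ from Gsta1 at any of these positions, Gsta3 differed at 13 and Gsta4 at 19. Across the whole coding sequence Gsta1 and Gsta2 were 97.6% identical and Gstp1 and Gstp2 were 98.1% identical, while Gsta1 was 74.4% identical to Gsta3 and 66.8% to Gsta4. Of the 100-base windows of the Gsta1 transcript 81.8% occurred unchanged in a transcript of another gene, most often the predicted gene Gm3776, and the share was 35.02% for Gsta2, 52.8% for Gstp1 and 63.5% for Gstp2. No window of Gsta3, Gsta4, Gsto1, Mgst2, Sult1b1 or Sult1d1 was shared, and 0.407% of those of Ugt2b34 were. In the mu class the share reached 13.8% (Gstm3) and was 7.73% for Gstm1. At the Ugt1a locus it was 39.5% for Ugt1a7c, 57.2% for Ugt1a1, 71.5% for Ugt1a6b and 100% for Ugt1a6a. All 2198 windows of Ugt1a6a occurred in a transcript that this annotation lists under Ugt1a7c. The first coding exons of Ugt1a6a (chr1:88138474-88139331) and Ugt1a7c (chr1:88095121-88095978) were themselves only 56.9% identical. The full share thus depends on that listed transcript, and whether the deposited counts used it is not stated. Values of Gsta1, Gsta2, Gstp1 and Gstp2 and of each Ugt1a gene are therefore uncertain as to the copy, since the rule for counting reads that match several genes is unstated.

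Of the 64 genes, 19 had no count in any library, 4 had at most 12 counts in a library and were not tested (Ugt2b5, Ugt2b36, Ugt2b38 and Sult2a8), and 41 were tested. The genes at 0 were 14 SULTs, among them Sult2a1 to Sult2a7 (sulfotransferases of hydroxysteroids and bile acids) and Sult1e1 (which sulfates estrogens), 4 genes of the Ugt2 clusters and Gstt4. Where no read was counted, a level of up to 3 counts per library (0.0606 to 0.0810 CPM) was still possible. The order of the expressed genes was read from the deposited TPM, which is scaled by length. The leading gene by the mean over all 8 libraries was Gstp1, a pi-class enzyme with broad electrophile substrates, with 1163, 1127, 1145 and 1125 TPM in the KO libraries, against 1130.4, 1223, 1095 and 1192 TPM in the fl/fl libraries. Gsto1, an omega-class thioltransferase and dehydroascorbate reductase, averaged 1172 ± 31.0 TPM in KO and 1022 ± 35.9 TPM in fl/fl (SD, n = 4 each), so that Gstp1 and Gsto1 overlapped in KO and did not overlap in fl/fl. Next came Gsta4 (876 ± 29.1 TPM in KO and 688 ± 48.5 TPM in fl/fl), Gstp2 (561 ± 9.75 TPM in KO and 549 ± 35.7 TPM in fl/fl), Mgst3 and Ugt2b34, of which Mgst3 and Ugt2b34 overlapped in both genotypes. At the low end Ugt1a2, Ugt1a5, Ugt1a9, Ugt1a10, Ugt2b1 and Sult4a1 averaged under 1 TPM in both genotypes.

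Among the 41 tested genes, 12 were higher in KO (29.3%, against 7.63% of all 14945 genes tested) and 5 were lower (12.2%, against 8.26%). The 12 include Gsta1, Gsta2, Ugt1a1, Ugt1a6a and Ugt1a7c, whose counts are uncertain as to the copy, so these calls may not be separate changes. The test was edgeR's quasi-likelihood test on counts with Benjamini-Hochberg adjustment over all genes and a threshold of 0.05. Of the 24 genes not past it, 4 had an unadjusted p under 0.05. The changes were mostly small: 2 genes, Ugt1a1 and Sult1d1, were at least 1.5-fold higher (4.88%, against 1.79% of all genes). Over the 41 genes, 12 (29.3%, against 9.91% of all genes tested) had every KO library above every fl/fl library. Every KO library lay below every fl/fl library for 4 of the 41 (9.76%, against 10.3% of all genes tested), a share near that of all genes. The median log2 fold change of the 41 genes was 0.0057 and that of all 14945 genes was -0.0012.

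**Figure D1:**
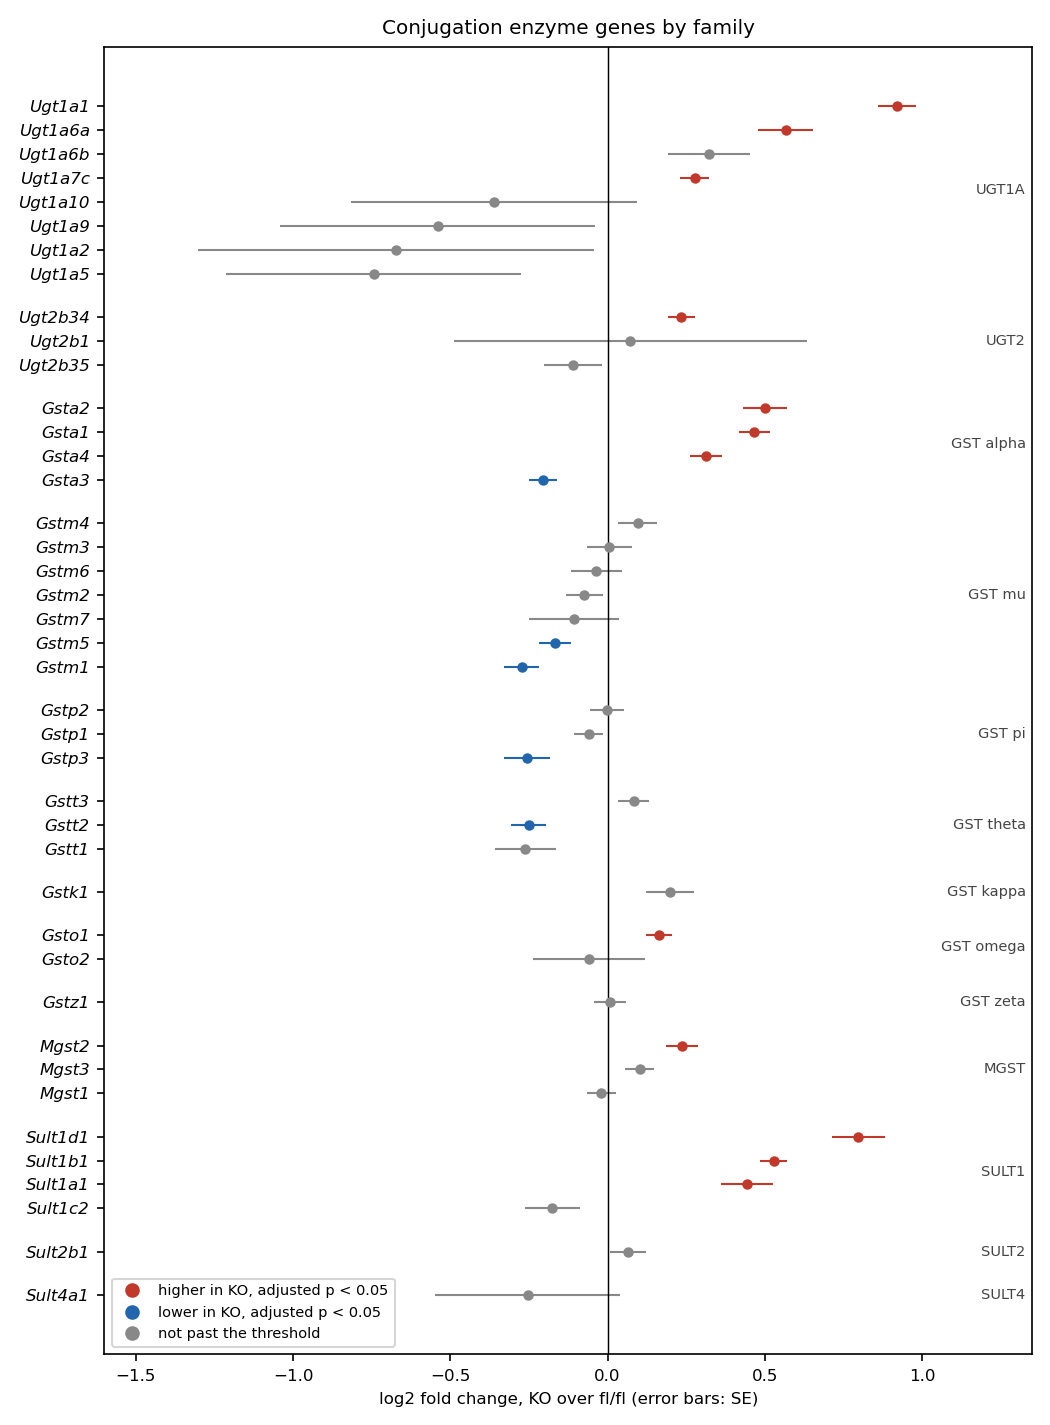
Fitted log2 fold change of KO over fl/fl (x axis, error bars are SE) for the 41 tested conjugation genes, grouped by family down the page and coloured by call. The higher genes lie in the UGT, GST alpha, GST omega, MGST and SULT1 families, from Ugt1a1 at 0.92 to Gsto1 at 0.16, and the lower ones in the GST alpha, mu, pi and theta classes, from Gstm1 at -0.27 to Gstm5 at -0.17.

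By family, the calls fell as follows. In the UGT superfamily 4 of 11 tested genes were higher and none was lower (3 of 8 in UGT1A and 1 of 3 in UGT2, with the other 7 not past the threshold in edgeR's test). In the SULT superfamily 3 of 6 were higher and none was lower. The GSTs split, with 5 of 24 higher and 5 lower. Of the 5 higher, 3 were of the alpha class, and of the 5 lower, 2 were of the mu class and 1 each of the alpha, pi and theta classes. The difference between families was not tested.

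Summed deposited TPM shows the same families as levels. SULT1 enzymes summed to between 351 and 374 TPM in KO and between 224 and 272 TPM in fl/fl, a ratio of medians of 1.55. UGT1A enzymes summed to between 205 and 235 TPM in KO and between 162 and 176 TPM in fl/fl, a ratio of 1.37. For the GST alpha class the sums were 1431 to 1558 TPM in KO and 1148 to 1286 TPM in fl/fl, a ratio of 1.252, and for UGT2 they were 481 to 521 TPM in KO and 394 to 465 TPM in fl/fl, a ratio of 1.23. In each of these 4 families the genotypes did not overlap, in TPM or in CPM. GST omega and MGST did not overlap in either measure as well, while GST kappa and SULT2 did not overlap in TPM but did in CPM. For SULT2 the lowest KO sum was 38.05 TPM and the highest fl/fl sum 38.03 TPM, so the groups nearly touched. Deposited TPM also stood slightly toward KO over all genes, with a median log2 fold change of 0.033 by limma. GST mu and GST pi overlapped, with 644 to 687 TPM in KO and 667 to 752 TPM in fl/fl for mu, and 1737 to 1775 TPM in KO and 1651 to 1865 TPM in fl/fl for pi. All 64 genes together summed to between 7086 and 7429 TPM in KO and between 6400 and 6838 TPM in fl/fl, of which the GSTs made up 6010 to 6264 TPM in KO and 5454 to 5996 TPM in fl/fl. In CPM the GST sums overlapped, with 3039 to 3163 CPM in KO and 2754 to 3129 CPM in fl/fl.

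**Figure D2:**
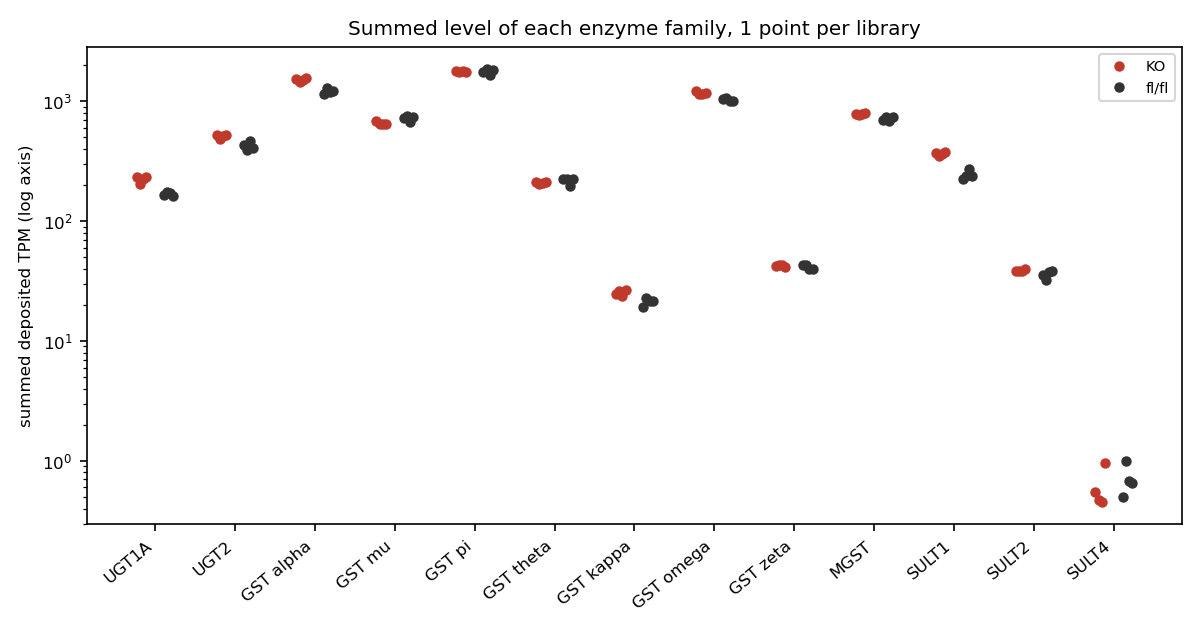
Summed deposited TPM of each enzyme family (y axis, log scale), 1 point per library, with KO left of fl/fl within each family. The genotypes separate in SULT1 (351 to 374 TPM in KO, 224 to 272 TPM in fl/fl) and UGT1A (205 to 235 TPM in KO, 162 to 176 TPM in fl/fl). They also separate in UGT2, GST alpha, GST omega and MGST, and in GST kappa and SULT2, whose CPM sums overlap. In SULT2 the groups nearly touch, at 38.05 TPM for the lowest KO library and 38.03 TPM for the highest fl/fl library. The genotypes overlap in GST mu, GST pi, GST theta, GST zeta and SULT4.

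Ugt1a1, the enzyme that glucuronidates bilirubin, had the highest fitted log2 fold change of the called genes. It had 55.7, 55.1, 62.2 and 64.6 CPM in the KO libraries, against 29.7, 33.0, 31.9 and 30.9 CPM in the fl/fl libraries. The genotypes were well apart, and the lowest KO library lay above the highest fl/fl library by more than either group's range. The fold was 1.89 (95% interval from the SE 1.74 to 2.05; log2 fold change 0.92 ± 0.06 (SE), adjusted p = 1.4e-06). Ugt1a6a, which conjugates small planar phenols, had 33.7, 27.8, 27.5 and 31.6 CPM in the KO libraries, against 17.1, 22.9, 20.6 and 20.6 CPM in the fl/fl libraries. The KO libraries were again all higher, with library 13 the lowest of the fl/fl group (log2 fold change 0.57 ± 0.09 (SE), adjusted p = 6.9e-04). The first coding exons of Ugt1a6a and Ugt1a7c were 56.9% identical. Every window of the Ugt1a6a transcript still occurs in a transcript listed under Ugt1a7c, so these counts may not be of Ugt1a6a alone.

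Ugt1a7c, a phenol-conjugating enzyme and the most abundant gene of the locus, had 288, 253, 270.3 and 278 CPM in the KO libraries, against 221, 237, 222 and 219 CPM in the fl/fl libraries. Its groups did not overlap, and KO library 6 was the lowest of the KO group (log2 fold change 0.28 ± 0.05 (SE), adjusted p = 0.00118). Ugt1a6b averaged 4.32 ± 0.63 CPM in KO and 3.43 ± 0.41 CPM in fl/fl (SD, n = 4 each) and did not pass the threshold (adjusted p = 0.115 by edgeR's test). Ugt1a2, Ugt1a5, Ugt1a9 and Ugt1a10 averaged 0.258 to 0.279 CPM in KO and 0.354 to 0.426 CPM in fl/fl. Ugt1a5, Ugt1a9 and Ugt1a10 had the same count in 3 of 8 libraries and never differed by more than 6 counts, so their counts do not tell these 3 genes apart.

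GENCODE M21 lists another gene of the locus, Ugt1a8, whose longest exon overlap with these members was 871 to 878 bases, and it was not analysed here. On the opposite strand Gm20528 overlaps an exon of Ugt1a1 by 528 bases and of each other member by 394, so that reads of either strand cannot be told apart there unless strand was used in counting.

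Because of the shared exons, each gene was also given as its share of the counts of the 8 members, called the locus counts, which summed to 341 to 384 CPM in KO and 273 to 299 CPM in fl/fl. Ugt1a1 made up 14.5%, 16.2%, 17.05% and 17.1% of the locus counts in the KO libraries, against 10.9%, 11.1%, 11.4% and 11.3% in the fl/fl libraries. Ugt1a7c made up 74.9%, 74.3%, 74.1% and 73.4% in KO, against 80.7%, 79.4%, 79.5% and 79.9% in fl/fl. The locus counts thus held more of Ugt1a1 and less of Ugt1a7c in every KO library than in any fl/fl library. By a two-sided exact permutation test over libraries each of these 2 shares had p = 0.0286, the smallest that 4 against 4 libraries can give, but adjusted over the 8 genes compared it was 0.114 and missed the threshold. With only 2 shares at that smallest p, adjustment over 8 genes cannot give a value under 0.05, so the miss decides nothing. The share of Ugt1a6a was 8.20% ± 0.51 in KO and 7.21% ± 0.64 in fl/fl (SD, n = 4 each; exact permutation p = 0.0571, adjusted 0.152). The length behind the deposited FPKM, worked out from counts and FPKM and scaled on 2475 other genes, was 3238 bases for Ugt1a1 and 3302 for Ugt1a7c, longer than a first exon alone.

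**Figure D3:**
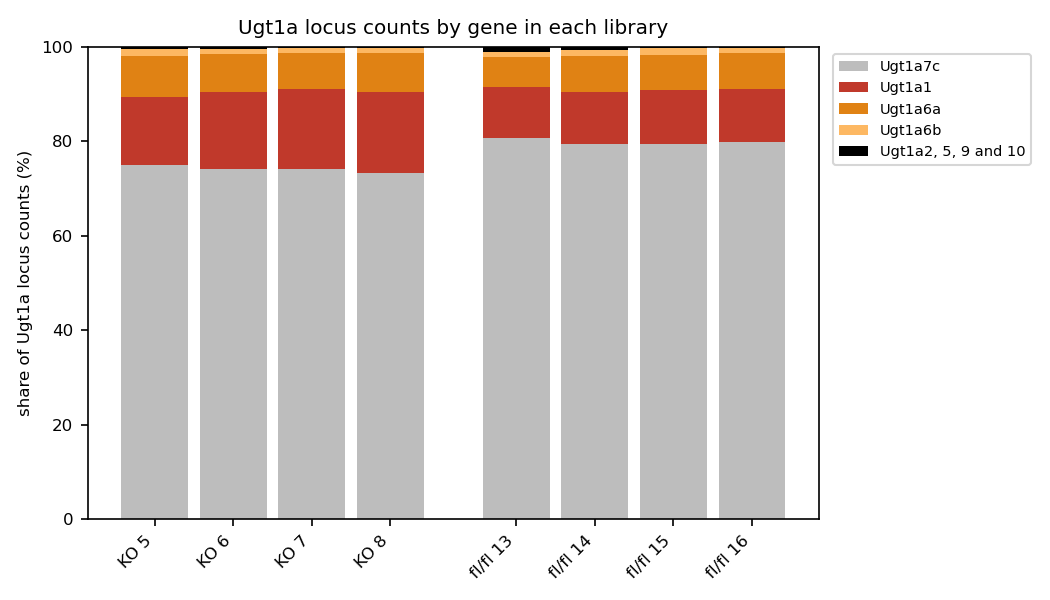
Share of the summed counts of the 8 Ugt1a members (y axis, percent) by gene in each library, with the 4 KO libraries left of the 4 fl/fl libraries. Ugt1a1 takes 14.5% to 17.1% in KO and 10.9% to 11.4% in fl/fl, and Ugt1a7c 73.4% to 74.9% in KO and 79.4% to 80.7% in fl/fl.

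Ugt2b34, of the UGT2B subfamily that conjugates steroids and bile acids among other substrates, was the only UGT2 gene with a high level. It had 785, 736, 756 and 777 CPM in the KO libraries, against 655, 612, 696 and 635 CPM in the fl/fl libraries. The KO libraries were all higher, and library 15 was the highest of the fl/fl group (log2 fold change 0.23 ± 0.04 (SE), adjusted p = 0.00237). Ugt2b35 averaged 10.7 ± 0.58 CPM in KO and 11.5 ± 1.52 CPM in fl/fl, and Ugt2b1 0.256 ± 0.110 CPM in KO and 0.236 ± 0.166 CPM in fl/fl (SD, n = 4 each), and neither passed the threshold.

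The sulfotransferases gave the other large changes. Sult1d1, which in the mouse sulfates catecholamines such as dopamine, had 151, 139.7, 147 and 158 CPM in the KO libraries, against 80.8, 80.7, 105 and 75.2 CPM in the fl/fl libraries. KO library 6, the lowest of its group, lay above fl/fl library 15, which was set apart from the other 3 fl/fl libraries on the side of KO (log2 fold change 0.80 ± 0.09 (SE), adjusted p = 5.0e-05). Sult1b1, which sulfates phenols and thyroid hormones, had 155, 156, 156 and 157 CPM in the KO libraries, against 99.96, 109.8, 114 and 109 CPM in the fl/fl libraries. The KO libraries were almost equal to each other and all above fl/fl (log2 fold change 0.53 ± 0.04 (SE), adjusted p = 8.5e-06). Sult1b1 and Sult1d1 lie within chr5:87513327-87569006, on the minus strand.

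Sult1a1, a phenol sulfotransferase, had 11.2, 11.1, 11.4 and 10.1 CPM in the KO libraries, against 7.22, 8.44, 8.90 and 7.61 CPM in the fl/fl libraries. It was higher in all KO libraries at a low level (log2 fold change 0.44 ± 0.08 (SE), adjusted p = 0.00278), and 61 bases of an exon overlap Sgf29 on the opposite strand, whose reads cannot be told apart unless strand was used in counting. Sult1c2 averaged 7.46 ± 0.53 CPM in KO and 8.42 ± 0.72 CPM in fl/fl (adjusted p = 0.211). Sult2b1, the cholesterol sulfotransferase and the most abundant SULT2 gene, had 23.6, 24.0, 23.3 and 24.5 CPM in the KO libraries, against 22.4, 20.8, 23.8 and 24.2 CPM in the fl/fl libraries. Its groups overlapped (adjusted p = 0.503), and 243 bases of an exon overlap Lmtk3 on the opposite strand. Sult4a1, known from brain, was at a low level with 0.709, 0.598, 0.57 and 1.23 CPM in the KO libraries, against 0.647, 1.31, 0.851 and 0.864 CPM in the fl/fl libraries, and its groups overlapped as well.

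Within the GST alpha class, 3 genes rose and 1 fell. Gsta1, which conjugates electrophiles and reduces lipid hydroperoxides, had 162, 151, 162 and 163 CPM in the KO libraries, against 107, 124, 114 and 116 CPM in the fl/fl libraries. All KO libraries were higher, with KO library 6 below the other 3 (log2 fold change 0.47 ± 0.05 (SE), adjusted p = 4.4e-05). Its near copy Gsta2 had 23.7, 21.7, 26.2 and 24.1 CPM in the KO libraries, against 15.7, 18.1, 16.1 and 17.7 CPM in the fl/fl libraries. Its groups did not overlap either (log2 fold change 0.50 ± 0.07 (SE), adjusted p = 3.5e-04). The ratio of Gsta1 to Gsta2 counts was 6.18 to 6.93 in KO and 6.55 to 7.08 in fl/fl, with overlap.

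Gsta4, the alpha enzyme specialised for 4-hydroxynonenal, a product of lipid peroxidation, had 423, 414, 406 and 434 CPM in the KO libraries, against 312, 374, 324 and 339.9 CPM in the fl/fl libraries. Every KO library lay above fl/fl library 14, the highest of the fl/fl group (log2 fold change 0.31 ± 0.05 (SE), adjusted p = 0.00115). Gsta3, which in the mouse detoxifies the epoxide of aflatoxin, had 148, 134, 135 and 139.6 CPM in the KO libraries, against 167, 158, 155 and 163 CPM in the fl/fl libraries. Here every KO library was below every fl/fl library (log2 fold change -0.21 ± 0.04 (SE), adjusted p = 0.00624). Counts of Gsta1 per count of Gsta3 were 1.09 to 1.20 in KO and 0.641 to 0.785 in fl/fl (counts not scaled by length), and did not overlap. Gsta1, Gsta2 and Gsta4 lie together on chromosome 9, within chr9:78191966-78347192, and Gsta3 lies alone at chr1:21240565-21265575. The predicted genes Gm3776 and Gm10639, which share sequence with Gsta1 and Gsta2 and were chosen after their values were seen, averaged 142 ± 5.18 and 27.6 ± 1.42 CPM in KO and 103 ± 6.04 and 19.996 ± 2.79 CPM in fl/fl (log2 fold change 0.47 for each, adjusted p = 4.2e-05 and 0.00209).

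Mu-class enzymes, which act on epoxides and aromatic electrophiles, gave 2 lower genes of 7. Gstm1, the most abundant of them, had 209, 205, 191 and 199 CPM in the KO libraries, against 243, 254, 217 and 259 CPM in the fl/fl libraries. The KO libraries were all lower, with fl/fl library 15 the closest to them (log2 fold change -0.27 ± 0.05 (SE), adjusted p = 0.00393). Gstm5 had 40.1, 41.0, 41.1 and 36.8 CPM in the KO libraries, against 44.9, 45.4, 42.9 and 45.3 CPM in the fl/fl libraries. Its groups did not overlap, but the difference was small (log2 fold change -0.17 ± 0.05 (SE), adjusted p = 0.0363), and 178 bases of an exon overlap the antisense gene 4933431E20Rik. The other 5 mu genes, Gstm2, Gstm3, Gstm4, Gstm6 and Gstm7, had log2 fold changes of -0.11 to 0.10 and none passed the threshold. The 7 genes lie together within chr3:107895854-108045179.

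In the pi class Gstp1 and Gstp2 did not pass the threshold (log2 fold change -0.06 ± 0.05 and -0.0017 ± 0.05, adjusted p = 0.451 and 0.989). The count ratio of Gstp1 to Gstp2 was 1.97 to 2.09 in KO and 2.05 to 2.17 in fl/fl. Gstp3, the third gene of the class, was 73.5% identical to Gstp1 over the coding sequence, and no 100-base window of its transcript was shared. It had 20.7, 20.6, 21.8 and 19.8 CPM in the KO libraries, against 24.98, 26.4, 21.1 and 26.7 CPM in the fl/fl libraries. Library 15 of the fl/fl group fell inside the KO range, so the groups overlapped (log2 fold change -0.26 ± 0.07 (SE), adjusted p = 0.0282). Of the theta class, whose substrates include small halogenated compounds, Gstt2 had 48.5, 48.4, 48.2 and 50.6 CPM in the KO libraries, against 57.6, 60.3, 52.2 and 63.0 CPM in the fl/fl libraries. All KO libraries were lower (log2 fold change -0.25 ± 0.06 (SE), adjusted p = 0.00852). Gstt3, the most abundant theta gene, had 108, 105, 100.1 and 104 CPM in the KO libraries, against 103, 102, 90.0 and 99.0 CPM in the fl/fl libraries, with overlap (adjusted p = 0.296), and 23.9% of its windows are shared with the overlapping gene Gm20441. Gstt1 averaged 14.7 ± 0.98 CPM in KO and 17.7 ± 2.60 CPM in fl/fl (adjusted p = 0.0876).

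The count of lower genes moved more with single libraries than that of higher genes, which was 11 to 12 with any 1 library left out. The lower count was then 3 to 6. It was 3 when KO library 5 or 8 or fl/fl library 13, 14 or 16 was left out, since Gstp3 and Gstm5 then missed the threshold, and 6 without fl/fl library 15, when Gstt1 passed (log2 fold change -0.36, adjusted p = 0.00225). Library 15 was the fl/fl library nearest to the KO mean for all 5 lower genes. It was also the lowest fl/fl library for 19 of the 24 tested GSTs, against 29.6% of all 14945 genes.

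The remaining classes held 1 member each with a small rise, or none. Gsto1 had 718, 691, 670.0 and 685 CPM in the KO libraries, against 624, 652, 583 and 606 CPM in the fl/fl libraries. Its KO libraries were all higher (log2 fold change 0.16 ± 0.04 (SE), adjusted p = 0.0149), but without KO library 5 the adjusted p was 0.0622. Mgst2, a membrane-bound enzyme that can make leukotriene C4, had 38.4, 39.9, 38.3 and 37.7 CPM in the KO libraries, against 33.5, 34.2, 30.1 and 33.1 CPM in the fl/fl libraries. Its groups did not overlap (log2 fold change 0.24 ± 0.05 (SE), adjusted p = 0.00672). Mgst3, a membrane-bound glutathione peroxidase and the most abundant MGST, had 275, 272, 273 and 275 CPM in the KO libraries, against 241, 265, 240.4 and 273 CPM in the fl/fl libraries. Fl/fl library 16 lay within the KO range (adjusted p = 0.162). Gstk1, found in mitochondria and peroxisomes, had 11.4, 12.3, 10.8 and 12.2 CPM in the KO libraries, against 9.16, 11.0, 10.1 and 10.3 CPM in the fl/fl libraries. The KO libraries were mostly higher, but overlapped (adjusted p = 0.102). Gstz1, which isomerises maleylacetoacetate in tyrosine breakdown, had 35.6, 36.8, 35.6 and 34.2 CPM in the KO libraries, against 36.9, 36.9, 33.2 and 34.4 CPM in the fl/fl libraries, with no separation (adjusted p = 0.949), and 338 bases of an exon overlap Pomt2 on the opposite strand. Mgst1 averaged 77.7 ± 2.05 CPM in KO and 78.8 ± 3.82 CPM in fl/fl, and Gsto2 2.55 ± 0.53 CPM in KO and 2.64 ± 0.54 CPM in fl/fl (SD, n = 4 each).

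**Figure D4:**
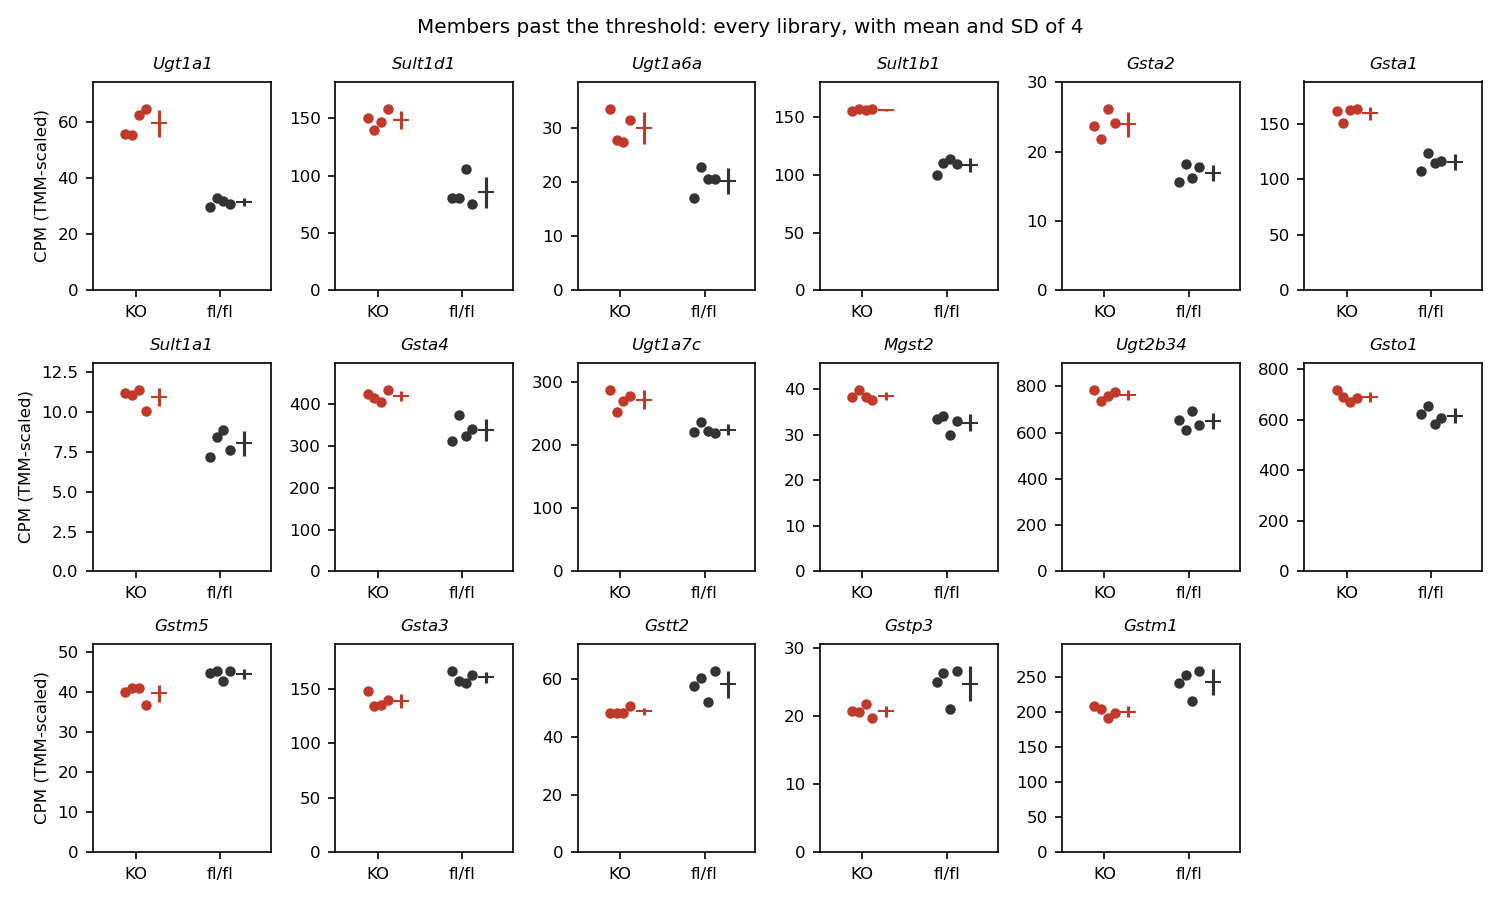
CPM (TMM-scaled, y axis from 0) of the 17 conjugation genes past the threshold, 1 point per library with the mean and SD of 4 beside it, KO left of fl/fl in each panel, ordered from the highest log2 fold change to the lowest. Ugt1a1 shows 55.1 to 64.6 CPM in KO and 29.7 to 33.0 CPM in fl/fl, and only Gstp3 has overlapping groups.

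Promoter windows of 250 bases before the annotated start were searched on both strands for 4 motifs in 32851 windows of RefSeq starts (GRCm38.p6). A start was found for 57 of the 64 genes (69 windows), and for 37 of the 41 tested genes (48 windows). The letters GTTAAT followed by any base and ATT, of the type bound by HNF1, a transcription factor of gut, liver and kidney epithelia, occurred in 0.371% of all windows (0.280% of the 13916 of tested genes) and in 8 of the 69, those of Ugt1a1, Ugt1a9, Ugt1a10, Sult1d1, Sult2a3, Sult2a4, Sult2a5 and Sult2a6. Both genes that were at least 1.5-fold higher in KO hold it, and so do Ugt1a9 and Ugt1a10 under 1 CPM and 4 Sult2a genes at 0 counts. The windows of Ugt1a1 (chr1:88211709-88211958, plus strand), Sult1d1 (chr5:87569007-87569256, minus strand) and, for contrast, Ugt1a7c (chr1:88094751-88095000, plus strand) are printed 5′ to 3′ along the gene, with the match in capitals where there is one.
Ugt1a1: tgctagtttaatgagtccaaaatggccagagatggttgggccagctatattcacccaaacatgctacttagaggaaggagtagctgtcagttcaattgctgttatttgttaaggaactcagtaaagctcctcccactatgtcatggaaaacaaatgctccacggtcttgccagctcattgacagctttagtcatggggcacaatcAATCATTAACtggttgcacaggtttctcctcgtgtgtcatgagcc
Sult1d1: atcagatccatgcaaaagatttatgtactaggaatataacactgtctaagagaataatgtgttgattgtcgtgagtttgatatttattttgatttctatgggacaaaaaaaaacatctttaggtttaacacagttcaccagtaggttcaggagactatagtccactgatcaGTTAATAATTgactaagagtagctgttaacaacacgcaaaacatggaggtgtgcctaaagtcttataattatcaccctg
Ugt1a7c: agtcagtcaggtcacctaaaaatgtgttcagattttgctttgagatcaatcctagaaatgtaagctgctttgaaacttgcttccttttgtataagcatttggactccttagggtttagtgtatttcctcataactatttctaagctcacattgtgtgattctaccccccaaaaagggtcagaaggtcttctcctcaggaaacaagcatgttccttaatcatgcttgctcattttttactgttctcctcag
The letters TGACNNNGC, the core of the antioxidant response element read by NRF2, occurred in 10.2% of all windows, in 11.9% of those of tested genes and in 4 of the 48 (8.33%), those of Gsta3, Gstm5, Gstm7 and Mgst1. The letters GCGTG, the core read by the aryl hydrocarbon receptor, occurred in 28.2% of all windows, in 43.1% of those of tested genes and in 11 of the 48 (22.9%). The letters TTTATG, of the CDX type, occurred in 10.8% of all windows, in 6.45% of those of tested genes and in 5 of the 48 (10.4%), Sult1d1 among them. These differences in share were not tested. In Gstm5 the TGACNNNGC match and a GCGTG match (on the other strand) overlap, and a match describes the window and is neither a binding site nor a cause.

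Genes that supply the conjugation steps were read from lists chosen for each cofactor, with counts over the tested genes. Beside these and the later lists, 7.63% of all 14945 genes tested were higher in KO and 8.26% lower, and no list was tested against these shares. Of 10 genes for UDP-glucuronate supply and turnover, 2 were higher and 1 lower, with a median log2 fold change of 0.07. Ugdh, which makes UDP-glucuronate, averaged 337 ± 13.4 CPM in KO and 255 ± 5.36 CPM in fl/fl, log2 fold change 0.40, adjusted p = 2.5e-05, and Slc35d1, which carries it into the endoplasmic reticulum, was higher (log2 fold change 0.34, adjusted p = 6.2e-04). Hk2, a hexokinase, was lower (log2 fold change -0.16, adjusted p = 0.0218). Of 10 genes for PAPS and sulfate supply, 5 were higher and 1 lower, with a median of 0.15. Papss2, a PAPS synthase, averaged 517 ± 8.88 CPM in KO and 432 ± 6.84 CPM in fl/fl, log2 fold change 0.26, adjusted p = 2.3e-04, and the higher genes included the anion exchanger Slc26a3 (log2 fold change 0.98, adjusted p = 4.9e-04), which is also among the colonocyte markers, the sulfate transporter Slc26a2 (log2 fold change 0.43, adjusted p = 0.00379) and the sulfatase Arsb (log2 fold change 0.23, adjusted p = 0.00617).

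Of 16 tested genes for glutathione supply, 4 were higher and 3 lower, with a median of 0.03. Gclc, the catalytic subunit of the rate-limiting ligase, averaged 442 ± 24.6 CPM in KO and 361 ± 15.2 CPM in fl/fl, log2 fold change 0.29, adjusted p = 8.9e-04. Cth, which yields cysteine, was higher (log2 fold change 0.42, adjusted p = 2.3e-04), as was the dipeptidase Dpep1 (log2 fold change 0.73, adjusted p = 0.0075), and Chac1, which degrades glutathione, was lower (log2 fold change -0.65, adjusted p = 0.00312). The remaining called genes of this list were named after their values were seen. Cbs (log2 fold change -0.60, adjusted p = 0.00835 by edgeR's test) and Slc3a2 (log2 fold change -0.20, adjusted p = 0.0142) were lower. Oplah was higher (log2 fold change 0.18, adjusted p = 0.0413). Of 9 efflux transporters of conjugates and drugs, 8 were higher and none lower, with a median of 0.40. Abcc3, which exports glucuronides, averaged 271 ± 9.28 CPM in KO and 211 ± 10.4 CPM in fl/fl, log2 fold change 0.36, adjusted p = 1.5e-04, and the drug exporters Abcg2 (log2 fold change 0.53, adjusted p = 1.5e-04), Abcb1a (log2 fold change 0.45, adjusted p = 2.6e-04) and Abcb1b (log2 fold change 0.40, adjusted p = 0.00237) were higher too. Of 10 other conjugation and detoxification genes 4 were higher and none lower. They were Ugt8a, a ceramide galactosyltransferase at 1.19 ± 0.174 CPM in KO and 0.201 ± 0.0855 CPM in fl/fl (log2 fold change 2.53, adjusted p = 8.6e-05), the quinone reductase Nqo1 (log2 fold change 0.26, adjusted p = 5.2e-04), and the epoxide hydrolases Ephx1 (log2 fold change 0.23, adjusted p = 0.0148) and Ephx2 (log2 fold change 0.23, adjusted p = 0.0424).

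Of 23 regulators known to act on these enzymes, 18 did not pass the threshold. In this list 4 were higher (against 7.63% of all genes tested) and 1 was lower (against 8.26%), with a median of -0.00024. The 4 with the smallest adjusted p were Nfe2l2, which encodes NRF2 (log2 fold change 0.27, adjusted p = 1.9e-04), the intestinal factor Cdx2 (log2 fold change 0.33, adjusted p = 2.4e-04), the retinoid receptor Rxra (log2 fold change 0.28, adjusted p = 0.00292) and Foxa2, which was lower (log2 fold change -0.37, adjusted p = 0.00513). Of 17 genes known as NRF2 outputs, 4 were higher and none lower (median 0.07): Nqo1, Srxn1, Gclc and Txnrd1. Of 6 tested aryl hydrocarbon receptor outputs, Nqo1 was higher and Aldh3a1 lower (log2 fold change -0.71, adjusted p = 0.00128). Of 8 tested outputs of the xenobiotic receptors PXR and CAR, 5 were higher and none lower (median 0.39), led by the cytochrome P450 genes Cyp2c55 (743 ± 44.7 CPM in KO and 404 ± 51.5 CPM in fl/fl, log2 fold change 0.88, adjusted p = 9.7e-06) and Cyp2c65 (log2 fold change 1.59, adjusted p = 5.4e-05), with the retinal dehydrogenase Aldh1a1 (log2 fold change 0.86, adjusted p = 1.1e-05). In the same list Cyp2b10 (log2 fold change -0.16), Alas1 (0.10) and Por (0.10) did not pass, and Cyp3a11 and Cyp3a25 were at 0 in every library. The receptor genes Nr1i2 (PXR, log2 fold change -0.00024) and Nr1i3 (CAR, 0.54) did not pass either (adjusted p = 0.998 and 0.102 by edgeR's test). Colonocyte markers, whose summed level is given above, had a median of 0.71, led by Car1 (log2 fold change 0.96, adjusted p = 1.4e-06), and cycling markers one of -0.33, led by Aurkb (log2 fold change -0.55, adjusted p = 3.5e-05).

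**Figure D5:**
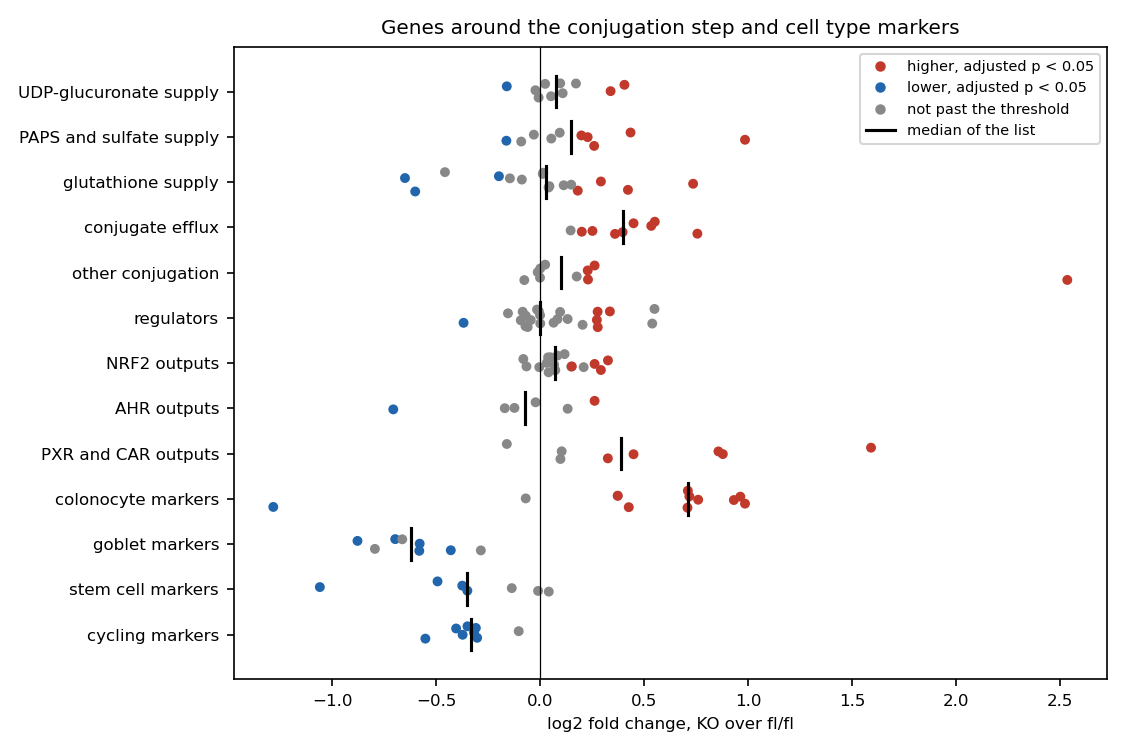
Fitted log2 fold change of KO over fl/fl (x axis) for the tested genes of each list (rows), 1 point per gene coloured by call, with the list median as a black line. Efflux transporters (median 0.40), PXR and CAR outputs (0.39) and colonocyte markers (0.71) lie mostly to the right of 0, and goblet, stem cell and cycling markers mostly to the left.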

How the data were processed

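Polyadenylated RNA of 4 KO and 4 fl/fl organoid libraries was sequenced, per the labels' protocols, from stranded libraries made of 1 µg of RNA with an integrity number above 7.0. The authors deposited 1 table with whole-number read counts per gene, not normalized, and with FPKM and TPM values that the authors scaled for length and depth. Per the submitters' processing notes the build was GRCm38 and the tools included HTSeq, TopHat2, TopHat and Bowtie2, without roles or versions. The sources used here do not state whether strand or both mates were counted, nor how reads matching several genes were treated.

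Groups came from the genotype label. After filterByExpr and TMM scaling, counts were tested with edgeR 4.0.16 (quasi-likelihood F-test, R 4.3.3) over 14945 genes, adjusted by Benjamini-Hochberg, threshold 0.05. CPM uses TMM-scaled totals, and a value after ± is an SD over 4 libraries or, for a fold change, an SE obtained as the log2 fold change over the root of F. Shares of the Ugt1a locus were compared by a two-sided exact permutation test. Alternatives were DESeq2 1.42.0, limma 3.58.1 (voom, and log2 of TPM + 0.1), other scalings and filters, halved counts, an adjusted p under 0.01, and each library left out. No library pair held identical values, and the fit was tested on simulated data. Totals per library ran from 37182098 to 49256171 counts, and limits at 0 counts cover counting error only. Values in every library are given for members past the threshold with a mean of at least 5 CPM and for the most abundant member of each family, and up to 4 genes with the smallest adjusted p for each list. For the glutathione list the other called genes were named as well. The members and lists were chosen with earlier results of these data known.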

Additional observations from a re-analysis of the deposited data

Results flagged for a closer look

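Among 82 sets of 4 libraries examined (41 tested genes in each genotype), 2 held a library far from the other 3 by Dixon's criterion, which chance alone gives in about 1 of 20 sets. Gsta1 had 151 CPM in KO library 6, the lowest of the KO group, where the next value was 162 CPM. Gstt2 had 50.6 CPM in KO library 8, the highest of the KO group, where the next value was 48.5 CPM. Both values stayed on their own genotype's side of every fl/fl library.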

How the results depend on the processing

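The 17 calls among the conjugation genes were all shared by the fits with DESeq2 size factors, upper quartile scaling, library totals alone, the DESeq2 Wald test, limma-voom, the stricter filter of 1 CPM in 4 libraries and halved counts, and no log2 fold change of a called gene turned round in any alternative run. The count of higher genes was 11 to 12 when 1 library was left out. The count of lower genes was 3 with limma on deposited TPM, 3 at an adjusted p under 0.01, and 3 to 6 with 1 library left out. Over all genes, 562 were higher and 597 lower at an adjusted p under 0.01, 772 were lower with limma on deposited TPM, and with 1 library left out 696 to 1386 were higher and 724 to 1404 lower (696 and 724 without KO library 8, 757 higher without KO library 5, 808 lower without fl/fl library 13). With limma on TPM Gsta3 (adjusted p = 0.0555) and Gstp3 (0.0529) missed the threshold and Mgst3 (0.0476) and Gstk1 (0.0372) passed it, and with no filter on low counts Gstm5 missed it (0.0596); the cause was not tested. Gstp3 reached an adjusted p of 0.0978 and Gstm5 one of 0.141 with 1 library left out. No paired analysis was possible because the genotypes share no replicate numbers. Depth limits the genes under 1 CPM, Ugt1a2, Ugt1a5, Ugt1a9, Ugt1a10, Ugt2b1 and Sult4a1, for which no direction is given.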

Other observations

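The pseudogene Gstm2-ps1, which shares 41 windows of 100 bases with Gstm1 and was looked at after the values of the mu class were seen, had 244 to 246 counts in the KO libraries and 218 to 357 counts in the fl/fl libraries, with overlap (5.32 ± 0.32 CPM in KO and 6.25 ± 0.76 CPM in fl/fl, adjusted p = 0.147 by edgeR's quasi-likelihood test). Library 14 of the fl/fl group was the nearest to the KO mean for 8 of the 12 higher genes and library 15 for the other 4, while libraries 13 and 16 were the nearest for none of the 17 called genes.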
